A study of Rattus norvegicus with 12 samples.

Results

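The comparison described here set TDP-43 + EA cells against Control cells and covers every gene that was measured. It took 6 of the 12 libraries of the series, 3 of each group, chosen by their treatment labels alone and by no measured value. All of them came from 1464R, neural stem cells of an adult rat kept as a line, which were differentiated for 4 days in medium with retinoic acid and then kept for 48 h in serum-free medium. TDP-43 + EA cells were given adenovirus carrying TDP-43 when the medium was changed and ethacrynic acid (EA) at 20 μmol/L for the last 24 h, and Control cells were given neither. The labels name only a virus with the C-terminal fragment of TDP-43, whereas the study's methods name viruses for the full-length human protein and for the fragment, both with a red fluorescent tag. No library with an empty virus, with TDP-43 alone or with EA alone was analysed here, so that changes due to the virus, to the transgene and to EA cannot be told apart. 1464R is a single line, and the sources do not say whether replicates were separate cultures beyond naming 3 experiments, so the p-values speak of the spread among these samples alone, which may be technical.

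TDP-43 is a nuclear protein that binds RNA and takes part in splicing and RNA transport. In most patients with amyotrophic lateral sclerosis (ALS) it leaves the nucleus of affected neurons and builds up as aggregates in the cytoplasm. EA is a diuretic that reacts with thiol groups, blocks glutathione S-transferases and lowers glutathione, the main small antioxidant of the cell. A pair of well-known programmes answer such stress. The transcription factor Nrf2, held down by Keap1 until thiols of Keap1 are modified, switches on genes that make glutathione, reduce quinones and handle iron, through a DNA element called the antioxidant response element. Heat shock factors switch on chaperone genes when proteins unfold, through the heat shock element.

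Library totals were 18979431 to 21484243 counts in TDP-43 + EA and 20800954 to 23119673 in Control. Tardbp, the rat gene of TDP-43 (ENSRNOG00000012455, chromosome 5 from 165432095 to 165442048, Rnor_6.0), was at 1795, 1245 and 1086 CPM (counts scaled to a library of 1000000) in the TDP-43 + EA libraries, against 37.0, 39.2 and 41.1 CPM in the Control libraries, so each library matched its label. The share of these reads that came from the human transgenes is not given in the sources used here. Levels in CPM are scaled by library size and not by gene length. TPM, which are also scaled by transcript length, are used where single genes are compared with each other. Sums of CPM over marker lists mix genes of unlike length and lists of unlike size, so they give rough levels only. The labels call the cells motor neuron-like, and the study's methods call them neuronal and glial. Of 13 motor neuron markers, 11 were under 1 CPM in all 6 libraries and 7 had no count, among them the acetylcholine transporter gene Slc18a3, the choline transporter gene Slc5a7 and the transcription factor gene Mnx1. The other motor neuron markers were the acetylcholinesterase gene Ache and Isl2, and the 13 genes together reached 10.4 to 11.1 CPM in TDP-43 + EA and 4.55 to 5.91 CPM in Control. Myelin genes were abundant, at 24300 to 31290 CPM in TDP-43 + EA and 47740 to 62120 CPM in Control for 20 genes together. Of 13 microglia and macrophage markers, 7 had no count, including Aif1, Cx3cr1 and Ptprc, and all 13 together reached 4.24 to 7.08 CPM in TDP-43 + EA and 1.39 to 4.34 CPM in Control.

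Most of the genes that moved far were higher in TDP-43 + EA cells, led by chaperone, heme and iron, detoxification and early response genes, whereas myelin and oligodendrocyte genes were lower. In the differential expression analysis by edgeR, 13230 genes were tested. A total of 991 DEGs were higher, which is 7.49% of the genes tested, and 572 were lower, 4.32%; DEGs changed by at least 1 on the log2 scale and passed an adjusted p (Benjamini-Hochberg) of 0.05. Without a minimum on the fold, 2592 genes (19.6%) rose and 2473 (18.7%) fell, 38.3% of the genes tested together, and these words stand for genes that passed that adjusted p throughout. The median log2 fold change over all genes tested was 0.0022. On a scale of log2(TPM + 1), limma called 561 DEGs higher and 514 lower, so that the higher share of DEGs was 52.2% there and 63.4% on counts. Without a minimum on the fold, limma had 2093 genes higher and 3363 lower on that scale. On log2(TPM + 0.1) values these were 2071 and 3266, so the near balance of rises and falls held on counts only. Changes of at least 2 on the log2 scale were seen in 399 of the higher and 126 of the lower DEGs, and changes of at least 4 in 148 and 21 of them. Together the higher DEGs made up 17.1, 18.1 and 16.8% of all TPM in the TDP-43 + EA libraries, against 5.25, 5.31 and 5.13% in Control. The lower DEGs made up 2.26, 2.26 and 2.75% in TDP-43 + EA, against 6.02, 5.65 and 6.70% in Control. The groups did not overlap for 1521 of the 1563 DEGs, and also not for 51.4% of all genes tested. TDP-43 + EA libraries lay 0.693, 0.709 and 0.634 from the Control mean, as a root mean square over genes on the log2 scale. The Control libraries, each measured from the mean of the other Control libraries, lay at 0.273, 0.292 and 0.287.

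**Figure D1:**
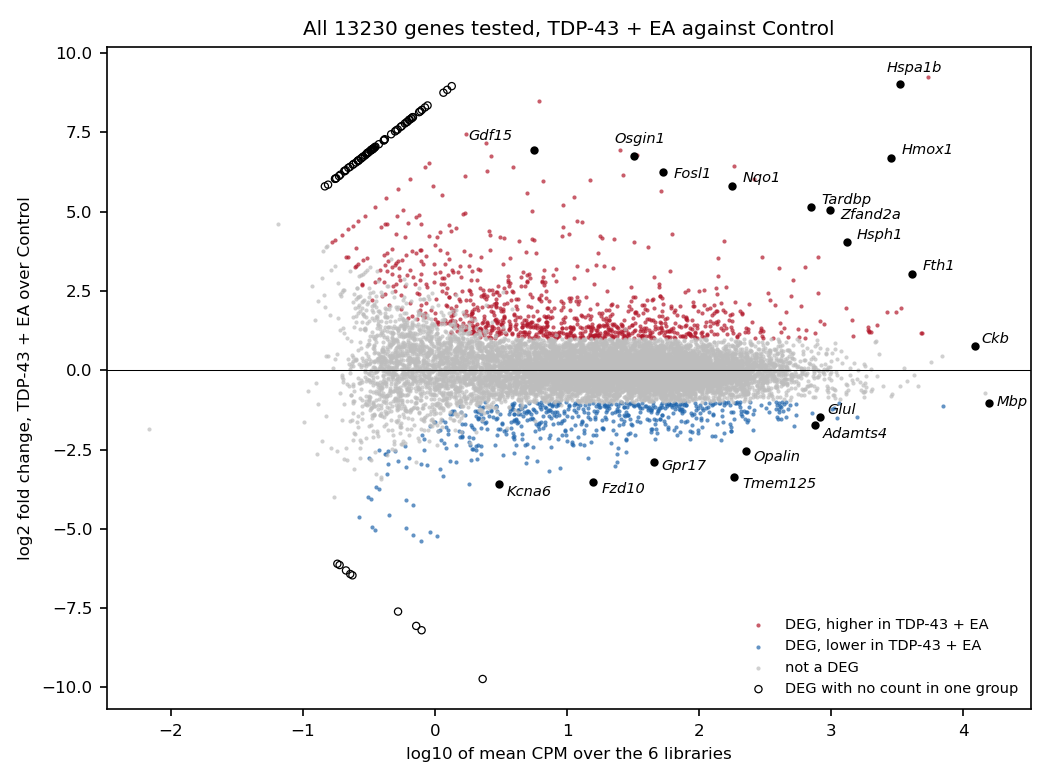
Each point is 1 of the 13230 genes tested, with the log10 of its mean CPM over the 6 libraries across and its log2 fold change of TDP-43 + EA over Control upwards; red points are higher DEGs (991), blue points lower DEGs (572), black points are named, and open circles had no count in 1 of the groups, so that their height is set by the fit and is no measured fold. Chaperone and heme genes stand highest among the abundant genes, and the abundant myelin genes lie under 0.

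Hsp70 and Hsp110 proteins bind unfolded protein chains and refold them with ATP, and the inducible Hsp70 genes were among the furthest risen of all. Hspa1b (ENSRNOG00000050647, chromosome 20 from 4877324 to 4879779), an inducible Hsp70 gene, was at 6652, 6067 and 7163 CPM in TDP-43 + EA, against 12.4, 12.9 and 12.6 CPM in Control (log2 fold change 9.03 with SE 0.21, adjusted p = 1.3e-12 by edgeR). Its near-identical copy LOC108348108, also on chromosome 20, was at 10054, 9494 and 12929.9 CPM in TDP-43 + EA and 16.6, 19.7 and 17.4 CPM in Control (9.24, SE 0.23 on the log2 scale). How reads were shared between the copies is not given, so the split between them is uncertain, but neither group's range came near the other's for either copy. Hspa1l, a close relative known from testis, was at 17.9, 24.3 and 26.5 CPM in TDP-43 + EA and 1.56, 0.125 and 0.928 CPM in Control (log2 fold change 4.71 with SE 0.47, adjusted p = 2.5e-06 by edgeR). Hsph1, an Hsp110 gene whose product exchanges the nucleotide of Hsp70, was at 2671, 2065 and 2679 CPM in TDP-43 + EA and 150, 146 and 154 CPM in Control (log2 fold change 4.04 with SE 0.20, adjusted p = 2.8e-09 by edgeR). Hspa8, the Hsp70 that cells make at all times, rose by less, with 2143, 1798 and 2255 CPM in TDP-43 + EA and 548, 497 and 563 CPM in Control (log2 fold change 1.95 with SE 0.13, adjusted p = 7.4e-08 by edgeR), and it too has a near copy in the annotation, LOC680121. The Hsp110 genes Hspa4l (1.23, SE 0.17) and Hspa4 (0.84, SE 0.08) and Hspa5, the Hsp70 of the endoplasmic reticulum (0.50, SE 0.10), rose as well. Hspa2 was the exception, with 358, 292 and 414 CPM in TDP-43 + EA and 696, 686 and 824 CPM in Control (log2 fold change -1.05 with SE 0.13, adjusted p = 1.5e-05 by edgeR), and its groups did not overlap either. Of 14 genes tested in this family 7 rose and 1 fell, and their summed share of TPM was 0.786, 0.685 and 0.825% in TDP-43 + EA, against 0.179, 0.173 and 0.186% in Control.

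Promoters of members with a match to the heat shock element are shown to place that element, searched on both strands as GAA, NN, TTC, NN and GAA in a row, in the genes just described and in Chordc1, a co-chaperone of Hsp90. The sequences are RefSeq promoters of GRCr8, a later rat assembly than the one of the counts, from 250 bases before to 50 bases after the start, with the matches in capitals, and they were chosen after their matches had been seen. They lie at chr12:10427118-10427417 (plus strand), chr8:50080264-50080563 (plus strand) and chr8:23650571-23650870 (plus strand).
Hsph1: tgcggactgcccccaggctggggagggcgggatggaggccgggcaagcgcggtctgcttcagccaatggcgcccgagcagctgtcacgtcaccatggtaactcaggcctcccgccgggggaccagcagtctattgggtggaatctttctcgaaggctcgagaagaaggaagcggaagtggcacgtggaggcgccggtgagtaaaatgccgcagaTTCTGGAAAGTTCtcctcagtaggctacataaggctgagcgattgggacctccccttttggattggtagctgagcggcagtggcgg
Hspa8: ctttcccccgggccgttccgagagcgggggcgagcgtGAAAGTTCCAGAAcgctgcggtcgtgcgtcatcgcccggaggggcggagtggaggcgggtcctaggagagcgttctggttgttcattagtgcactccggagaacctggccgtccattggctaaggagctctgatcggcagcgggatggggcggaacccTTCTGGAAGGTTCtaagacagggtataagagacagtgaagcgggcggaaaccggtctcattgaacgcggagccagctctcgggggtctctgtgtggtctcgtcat
Chordc1: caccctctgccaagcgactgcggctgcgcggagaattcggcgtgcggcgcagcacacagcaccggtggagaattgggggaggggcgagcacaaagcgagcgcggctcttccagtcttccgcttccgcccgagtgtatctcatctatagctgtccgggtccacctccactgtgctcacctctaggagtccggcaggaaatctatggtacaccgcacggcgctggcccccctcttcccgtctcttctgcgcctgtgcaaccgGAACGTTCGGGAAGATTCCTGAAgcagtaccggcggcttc
The match of Hsph1 and the match of Hspa8 nearest the start read on the minus strand, and Chordc1 holds 3 matches that overlap. Among 27457 promoters of this length 0.736% held the element, and among the 9937 tested genes matched to a promoter 0.493%, or 49 genes. Of these 49 genes 18 rose and 10 fell, 36.7% and 20.4%, beside 19.8% and 19.9% of all matched genes. Among DEGs matched to a promoter the element stood in 9 of 713 higher (1.26%) and 5 of 421 lower (1.19%). A match is a run of letters and does not show that a factor binds there.

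Hsp90 and the proteins that hand it clients rose without exception among the members that passed the test. Of 19 genes tested 14 rose and none fell by edgeR (1 lower at an unadjusted p under 0.05, none lower by DESeq2), and the median log2 fold change of the list was 0.84. Hsp90aa1, the inducible cytosolic Hsp90, was at 1397, 1268 and 1353 CPM in TDP-43 + EA and 279, 238 and 233 CPM in Control (log2 fold change 2.42 with SE 0.13, adjusted p = 7.5e-09 by edgeR), and Hsp90ab1, its constant partner, at 3433, 3085 and 3202 CPM in TDP-43 + EA and 1231, 1205 and 1179 CPM in Control (log2 fold change 1.43 with SE 0.09, adjusted p = 3.3e-08 by edgeR). The groups were far apart for both, and the constant gene remained the more abundant, with 1887 ± 104 TPM against 743 ± 34.9 TPM in TDP-43 + EA (SD, n = 3). Chordc1 (1.68, SE 0.18), Ahsa2 and Ahsa1, which speed up the ATP cycle of Hsp90 (1.62, SE 0.21 and 1.14, SE 0.09), and Stip1, which links Hsp70 to Hsp90 (1.22, SE 0.12), rose too. So did the immunophilin genes Fkbp4 (1.00, SE 0.08) and Fkbp5 (0.71, SE 0.12), and Stub1 (0.56, SE 0.10), the gene of a ubiquitin ligase that marks chaperone clients. Of the heat shock factors themselves, Hsf2 was at 87.7, 70.4 and 72.5 CPM in TDP-43 + EA and 33.9, 31.6 and 34.3 CPM in Control (log2 fold change 1.21 with SE 0.14, adjusted p = 9.8e-06 by edgeR), whereas Hsf1, the main factor of the heat shock response, was at 40.3, 37.7 and 32.4 CPM in TDP-43 + EA and 30.5, 30.5 and 27.5 CPM in Control (log2 fold change 0.32 with SE 0.11, adjusted p = 0.033 by edgeR). The call of Hsf1 was lost in 10 of 15 alternative settings (adjusted p up to 0.15). Chaperonins, barrel-shaped complexes in which proteins fold, moved less: 10 of 16 genes rose and none fell by edgeR (1 lower at an unadjusted p under 0.05, none by DESeq2), from Hspe1 (1.30, SE 0.15) and Hspd1 (0.88, SE 0.12) of mitochondria to the cytosolic subunits Tcp1 (0.80, SE 0.10), Cct8 (0.71, SE 0.09) and Cct7 (0.23, SE 0.07); on log2(TPM + 1) values limma had 7 higher and 3 lower, and the call of Cct7 was lost in 5 of 15 settings (adjusted p up to 0.121).

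Genes of J-domain proteins, which deliver clients to Hsp70, moved both ways, and the largest changes were rises. Of 37 tested 8 rose and 11 fell, with a list median of -0.06 on the log2 scale. These were 21.6% and 29.7%, beside 19.6% and 18.7% of all genes tested. Some rises were small, such as that of Dnajc3 (0.41). Dnajb1, the main partner of inducible Hsp70, was at 1755, 1054 and 1598 CPM in TDP-43 + EA and 123, 128 and 123 CPM in Control (log2 fold change 3.56 with SE 0.15, adjusted p = 7.1e-10 by edgeR). Dnaja4 (2.39, SE 0.16), Dnaja1 (2.06, SE 0.14) and Dnajc5, a chaperone of synaptic vesicles (1.24, SE 0.14), had the next smallest adjusted p. The falls lay between -1.03 for Dnajc30 and -0.35 for Dnajb11, both named after their values were seen, and Dnajc30 was at 13.8, 10.9 and 16.4 CPM in TDP-43 + EA and 26.1, 27.7 and 30.3 CPM in Control, with no overlap. Among small heat shock proteins and Bag co-chaperones 4 of 13 rose and 2 fell (30.8% and 15.4%, beside 19.6% and 18.7% of all genes tested). Bag3, which couples Hsp70 to autophagy of aggregates, was at 296, 268 and 319 CPM in TDP-43 + EA and 16.2, 19.4 and 16.5 CPM in Control (log2 fold change 4.08 with SE 0.16, adjusted p = 4.5e-10 by edgeR). Cryab, a small heat shock protein of glia and muscle, was at 1059, 523 and 621 CPM in TDP-43 + EA and 102, 70.5 and 63.8 CPM in Control (log2 fold change 3.22 with SE 0.25, adjusted p = 2.3e-07 by edgeR), with replicate 1 the highest in each group. Hspb1, the best known small heat shock protein, had no count in Control and 0.539, 1.85 and 2.89 CPM in TDP-43 + EA, at least 13.6-fold higher with 3 counts per library as the limit of detection. Bag1 (-0.58, SE 0.12) and Hspbp1 (-0.51, SE 0.10), which both release clients or nucleotide from Hsp70, fell.

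**Figure D2:**
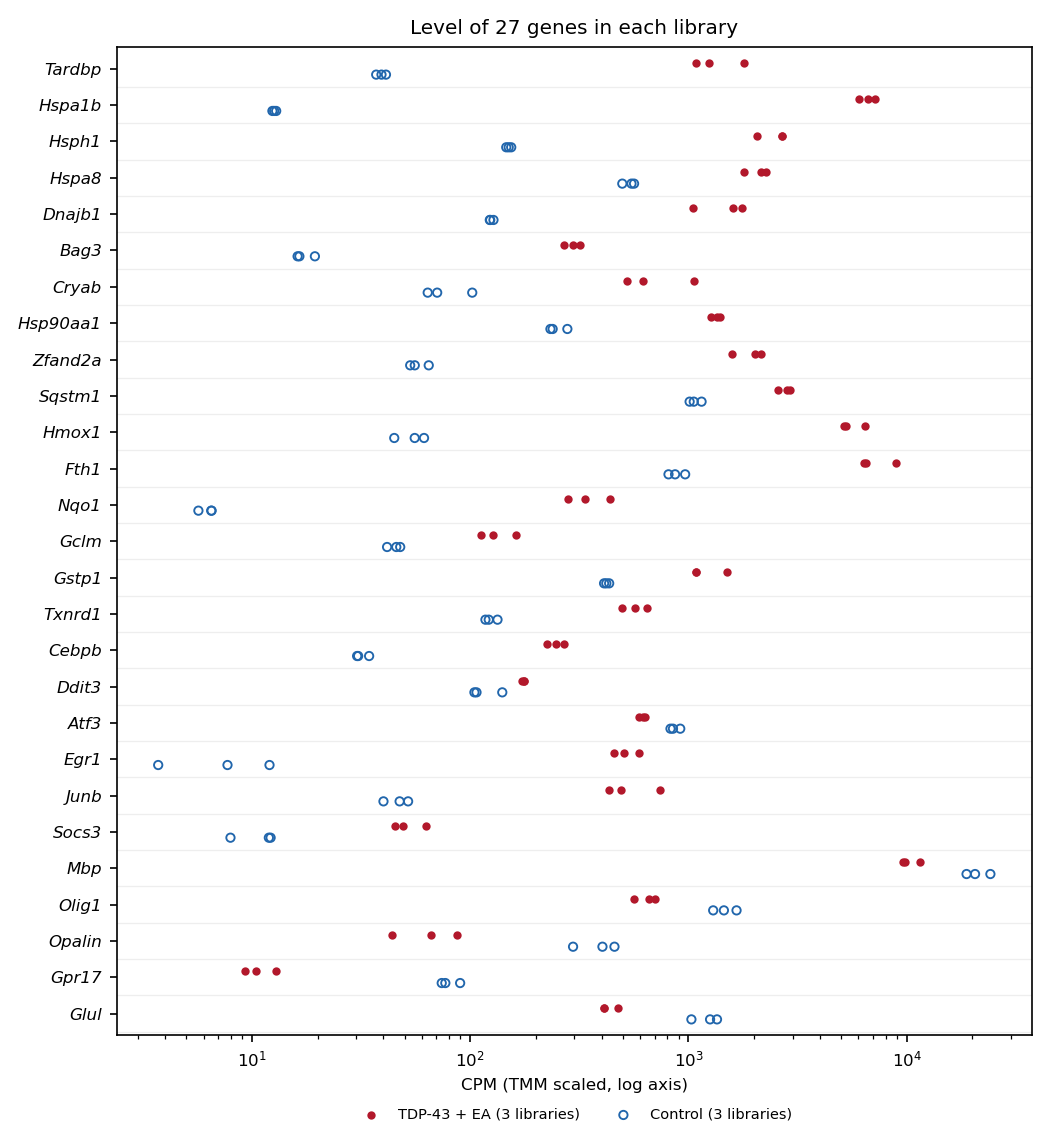
Level of 27 genes in CPM on a log axis, 1 point per library, filled for the 3 TDP-43 + EA libraries and open for the 3 Control libraries. For most genes the points of a group lie close together beside the gap between groups, as for Hspa1b at 6067 to 7163 CPM in TDP-43 + EA and 12.4 to 12.9 CPM in Control. The gap is narrow for Ddit3, at 172 to 177 CPM in TDP-43 + EA and 104 to 140 CPM in Control. It runs the other way for Atf3, Glul and the myelin and oligodendrocyte genes.

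Genes of the ubiquitin and proteasome groups rose in most members, whereas autophagy genes went both ways. The largest change in these groups was that of Zfand2a, which encodes an AN1 zinc finger protein known from arsenite stress that associates with the proteasome, at 2153, 1581 and 2009 CPM in TDP-43 + EA and 64.5, 55.7 and 53.04 CPM in Control (log2 fold change 5.05 with SE 0.15, adjusted p = 6.9e-12 by edgeR). Ubb, a polyubiquitin gene that encodes several ubiquitin units in a row, was at 7008, 6094 and 7074 CPM in TDP-43 + EA and 2927, 3047 and 3059.6 CPM in Control (log2 fold change 1.16 with SE 0.11, adjusted p = 2.0e-06 by edgeR). Its groups stood well apart, and its level is uncertain because ubiquitin units of nearly identical sequence occur in other genes. Vcp, a segregase that pulls ubiquitin-tagged proteins apart and is mutated in some ALS families, was at 1309.8, 1373 and 1259.7 CPM in TDP-43 + EA and 825, 823 and 809 CPM in Control (log2 fold change 0.68 with SE 0.07, adjusted p = 3.6e-06 by edgeR). Of 20 genes of this group 12 rose and none fell by edgeR. Of 31 genes of the 26S proteasome 21 rose and none fell by edgeR, and in neither group was any lower at an unadjusted p under 0.05 or by DESeq2, with a median log2 fold change of 0.28 over the list and the smallest adjusted p for Psmd1 (0.68, SE 0.08), Psma5 (0.75, SE 0.09), Psmb3 (0.80, SE 0.10) and Psma1 (0.62, SE 0.08). Autophagy genes did not share a direction, with 7 of 30 risen and 8 fallen (23.3% and 26.7%, beside 19.6% and 18.7% of all genes). Sqstm1, the gene of the receptor p62, which carries ubiquitin-tagged cargo into autophagosomes and also holds Keap1, was at 2824, 2923 and 2569.5 CPM in TDP-43 + EA and 1148, 1012 and 1057 CPM in Control (log2 fold change 1.37 with SE 0.09, adjusted p = 5.3e-08 by edgeR). Gabarapl1, of the family that coats the autophagosome membrane (1.22, SE 0.11), and Wipi2, which acts early in its formation (1.19, SE 0.18), rose. Atg7, the enzyme that attaches that family to membranes, fell, with 49.4, 48.4 and 59.4 CPM in TDP-43 + EA and 94.1, 83.6 and 89.0 CPM in Control (log2 fold change -0.76 with SE 0.11, adjusted p = 9.6e-05 by edgeR), and Ulk1 (-0.37, SE 0.12), Atg16l1 (-0.57, SE 0.14) and Tfeb (-0.48, SE 0.12), a regulator of lysosome genes, fell as well and were named after their values were seen. The call of Ulk1 was lost in 4 of 15 settings (adjusted p up to 0.0927).

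Most regulators of Nrf2 were higher in TDP-43 + EA cells, with a list median of 0.72 on the log2 scale. Its target groups had medians between 0.08 for glutathione S-transferases and 1.43 for quinone reduction and NADPH supply, and each of them held some members that changed far more. Nfe2l2, the gene of Nrf2, was at 205, 162 and 184 CPM in TDP-43 + EA and 57.4, 45.5 and 41.9 CPM in Control (log2 fold change 1.93 with SE 0.13, adjusted p = 5.7e-08 by edgeR). The small Maf proteins, which pair with Nrf2 on DNA, rose in all 3 genes measured. Maff was at 19.7, 19.5 and 14.1 CPM in TDP-43 + EA and 1.15, 0.751 and 0.371 CPM in Control, the largest change of this group (log2 fold change 4.52 with SE 0.28, adjusted p = 2.9e-08 by edgeR), Mafk at 119.7, 107 and 119.8 CPM in TDP-43 + EA and 25.8, 27.6 and 32.02 CPM in Control (2.02, SE 0.13) and Mafg at 210.3, 208 and 189 CPM in TDP-43 + EA and 59.7, 57.2 and 57.7 CPM in Control (1.80, SE 0.10). Bach1 (0.96, SE 0.14) and Bach2 (1.04, SE 0.24), which compete with Nrf2 for its element, rose, and so did Cul3 (0.48, SE 0.09) and Gsk3b (0.48, SE 0.08), which take part in its breakdown. Keap1 did not pass, at 82.0, 78.9 and 79.6 CPM in TDP-43 + EA and 65.7, 72.2 and 68.3 CPM in Control (edgeR adjusted p = 0.057). It passed in 5 of 15 alternative settings, with an adjusted p of 0.0333 by DESeq2. Btrc, a ubiquitin ligase subunit that recognises Nrf2, fell (-0.83, SE 0.14). In all 8 of 12 rose and 1 fell.

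The heme oxygenase gene Hmox1 (ENSRNOG00000014117, chromosome 19 from 14508616 to 14515456) was among the genes with the largest change at high level. Its product breaks heme into iron, carbon monoxide and biliverdin. It was at 6427, 5149.7 and 5249.5 CPM in TDP-43 + EA and 61.4, 55.6 and 44.8 CPM in Control (log2 fold change 6.70 with SE 0.18, adjusted p = 3.3e-12 by edgeR). Iron storage followed the same direction. Fth1, the heavy chain of ferritin, was at 6502, 8968 and 6387 CPM in TDP-43 + EA and 965, 868 and 809.8 CPM in Control (log2 fold change 3.05 with SE 0.14, adjusted p = 1.2e-09 by edgeR), and Ftl1, the light chain, at 4498, 4321 and 3554 CPM in TDP-43 + EA and 1276, 1069.7 and 1136 CPM in Control (log2 fold change 1.83 with SE 0.11, adjusted p = 2.0e-08 by edgeR), though Ftl1 and its near copy LOC100360087 cannot be separated with certainty. For Fth1 replicate 2 was the highest in TDP-43 + EA, and the lowest TDP-43 + EA library still stood far above the highest Control. The heme exporter gene Flvcr1 (2.83, SE 0.26), the biliverdin reductase gene Blvrb (1.62, SE 0.14) and Tfrc, which brings iron into the cell (1.42, SE 0.13), rose. Slc40a1, the gene of the iron exporter ferroportin, had no count in any of the 6 libraries, and Slc11a2, which moves iron out of endosomes, fell (-0.40, SE 0.10). Of 21 heme and iron genes tested 8 rose and 1 fell, with a list median of 0.24 on the log2 scale. Its share of all TPM was 3.19, 3.67 and 2.98% in TDP-43 + EA, against 0.659, 0.597 and 0.588% in Control.

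Genes of quinone reduction and NADPH supply changed in all 14 members tested, with 12 risen, 2 fallen and a median log2 fold change of 1.43. Nqo1 (ENSRNOG00000012772, chromosome 19 from 38422164 to 38437180), which reduces quinones and so keeps them from forming radicals, was at 336, 438 and 282 CPM in TDP-43 + EA and 6.52, 5.67 and 6.496 CPM in Control (log2 fold change 5.82 with SE 0.18, adjusted p = 9.8e-12 by edgeR). Osgin1, an oxidative stress-induced growth inhibitor, was at 88.7, 48.9 and 55.2 CPM in TDP-43 + EA and 0.451, 0.2503 and 1.11 CPM in Control (log2 fold change 6.76 with SE 0.36, adjusted p = 6.2e-09 by edgeR). The aldo-keto reductase gene Akr1b8 was close to the limit of detection in Control, at 11.2, 17.6 and 9.88 CPM in TDP-43 + EA and 0.0821, 0.417 and 0.0928 CPM in Control (5.97, SE 0.47), whereas Akr1b1, aldose reductase, was abundant in both groups, at 811, 1254 and 768 CPM in TDP-43 + EA and 235, 218 and 244 CPM in Control (2.02, SE 0.18). Among suppliers of NADPH, malic enzyme Me1 (1.89, SE 0.11) and Tkt (1.02, SE 0.11) and Taldo1 (0.77, SE 0.09) of the pentose phosphate pathway rose, while the dehydrogenase gene Idh1 fell (-0.47, SE 0.15), as did the reductase gene Akr7a3 (-0.88, SE 0.18). The call of Idh1 was lost in 4 of 15 settings (adjusted p up to 0.116).

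Glutathione genes changed at the steps of supply and recycling. Slc7a11, the cystine importer that provides the limiting amino acid, was at 23.1, 15.4 and 14.1 CPM in TDP-43 + EA and 0.410, 1.34 and 1.07 CPM in Control (log2 fold change 4.23 with SE 0.49, adjusted p = 1.1e-05 by edgeR). The subunits of the rate-limiting enzyme of glutathione synthesis were at 148, 143 and 110.2 CPM in TDP-43 + EA and 24.7, 21.0 and 27.0 CPM in Control for the catalytic Gclc (2.46, SE 0.14) and at 161, 127 and 112 CPM in TDP-43 + EA and 41.6, 47.7 and 45.8 CPM in Control for the modifier Gclm (1.57, SE 0.12). Gsr, the reductase that recycles glutathione, was at 150.4, 170.3 and 117 CPM in TDP-43 + EA and 35.6, 31.1 and 39.9 CPM in Control (2.04, SE 0.13). None of these genes overlapped between groups, and the synthetase of the last step, Gss, rose by less (0.50, SE 0.14). Gpx8 (-0.42, SE 0.12), Ggct (-0.68, SE 0.24) and Gpx3 (-1.13, SE 0.42) fell, so that 9 of 19 genes rose and 3 fell. Those 3 calls were lost in 3 to 7 of 15 settings, and that of Gss without TDP-43 + EA replicate 1 (adjusted p = 0.0537 by edgeR). Of 15 glutathione S-transferases, the enzymes that EA inhibits, 4 rose and 1 fell (26.7% and 6.67%, beside 19.6% and 18.7% of all genes). Gsta1 was at 98.5, 136 and 70.9 CPM in TDP-43 + EA and 2.38, 2.34 and 1.35 CPM in Control (log2 fold change 5.64 with SE 0.31, adjusted p = 8.0e-09 by edgeR), and Gstp1, the most abundant, at 1077, 1507 and 1086 CPM in TDP-43 + EA and 420.2, 433 and 410.4 CPM in Control (log2 fold change 1.54 with SE 0.13, adjusted p = 6.6e-07 by edgeR), or 3304 ± 659 TPM in TDP-43 + EA and 1235 ± 49.4 TPM in Control (SD, n = 3 each). Among thioredoxin, peroxiredoxin and superoxide genes 11 of 19 rose and 1 fell. Txnrd1, which keeps thioredoxin reduced, was at 642, 571 and 494 CPM in TDP-43 + EA and 117, 121 and 133 CPM in Control (log2 fold change 2.20 with SE 0.11, adjusted p = 3.7e-09 by edgeR), and Prdx1, a peroxide-reducing enzyme, at 1173, 1546 and 1136 CPM in TDP-43 + EA and 474, 469 and 476 CPM in Control (log2 fold change 1.44 with SE 0.11, adjusted p = 1.6e-07 by edgeR). Sod1, mutated in some ALS families, was at 323, 365 and 291 CPM in TDP-43 + EA and 100.6, 94.2 and 90.3 CPM in Control (log2 fold change 1.78 with SE 0.10, adjusted p = 1.2e-08 by edgeR), and the mitochondrial Sod2 changed similarly in size (1.45, SE 0.09). Txnip, an inhibitor of thioredoxin, was the exception, at 72.1, 66.4 and 85.3 CPM in TDP-43 + EA and 225, 208 and 259 CPM in Control (log2 fold change -1.63 with SE 0.12, adjusted p = 1.5e-07 by edgeR).

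The antioxidant response element was searched as TGACNNNGC and the site of AP-1 factors as TGANTCA, on both strands, and 3 promoters that hold both are printed because the elements overlap in them. They lie in GRCr8 at chr5:135383656-135383955 (plus strand), chr1:210769656-210769955 (minus strand) and chr12:20275200-20275499 (plus strand), are RefSeq sequences of the same span as before, have the matches in capitals, and were chosen after their matches had been seen.
Prdx1: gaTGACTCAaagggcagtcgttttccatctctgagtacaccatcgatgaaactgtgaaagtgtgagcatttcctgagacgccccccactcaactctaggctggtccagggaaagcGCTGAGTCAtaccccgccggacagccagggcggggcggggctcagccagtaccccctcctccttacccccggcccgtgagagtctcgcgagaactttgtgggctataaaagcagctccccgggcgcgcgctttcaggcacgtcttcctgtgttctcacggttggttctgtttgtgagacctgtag
Gstp1: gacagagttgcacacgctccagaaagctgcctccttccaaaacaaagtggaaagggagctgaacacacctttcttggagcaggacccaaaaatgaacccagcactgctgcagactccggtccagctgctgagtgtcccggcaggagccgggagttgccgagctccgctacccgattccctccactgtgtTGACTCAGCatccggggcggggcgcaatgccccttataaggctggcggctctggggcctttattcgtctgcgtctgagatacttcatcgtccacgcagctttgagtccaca
Zfand2a: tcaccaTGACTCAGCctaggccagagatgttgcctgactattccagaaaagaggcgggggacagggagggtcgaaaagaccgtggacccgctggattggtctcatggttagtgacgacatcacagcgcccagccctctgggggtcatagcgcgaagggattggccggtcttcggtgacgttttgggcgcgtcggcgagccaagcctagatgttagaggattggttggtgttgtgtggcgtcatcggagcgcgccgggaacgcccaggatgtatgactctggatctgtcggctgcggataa
Prdx1 also holds an AP-1 site on its own near the far end of the window. The antioxidant response element stood in 12.2% of all promoters and 14.7% of the tested genes, and the AP-1 site in 7.33% and 4.68%. Of 1463 tested genes with the antioxidant response element in this window 21.3% rose and 20.6% fell, and of 465 with the AP-1 site 21.9% and 17.6%, beside 19.8% and 19.9% of all matched genes. At any fold the shares for either element were thus close to those of genes at large. Among the higher DEGs matched to a promoter 17% held the antioxidant response element and 6.73% the AP-1 site. Among the lower DEGs these were 13.5% and 4.51%, and the differences were not tested.

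**Figure D3:**
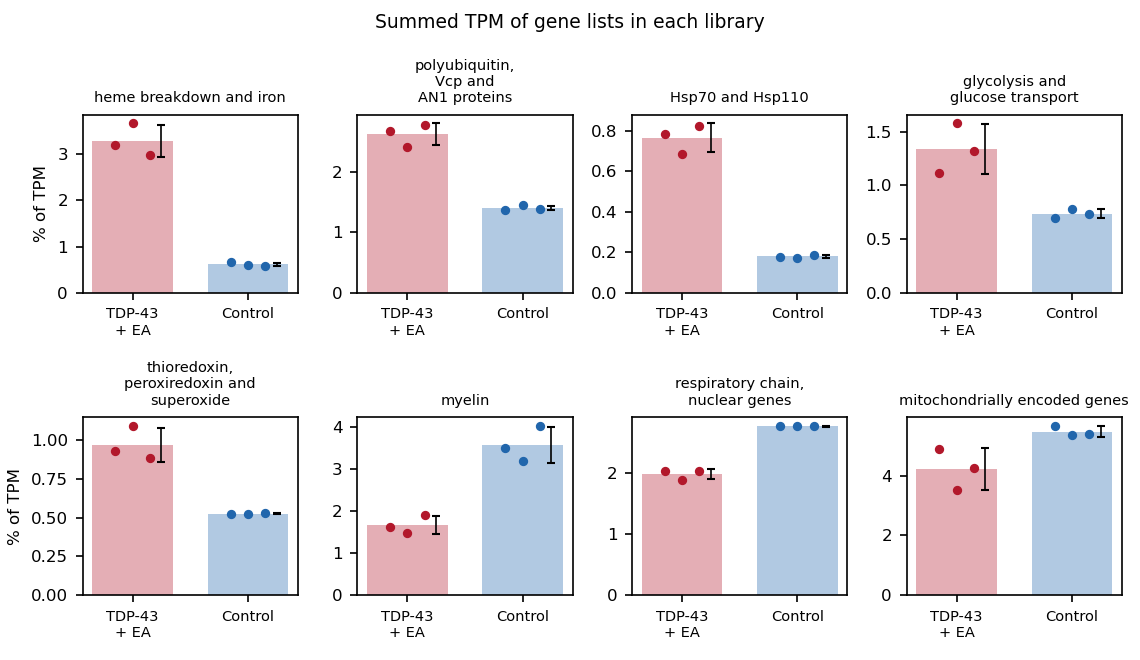
Share of all TPM, in percent, of 8 gene lists in TDP-43 + EA and Control; bars are means of 3 libraries, points are libraries and error bars are SD. Heme and iron genes took 3.28% in TDP-43 + EA and 0.614% in Control, and myelin genes 1.66% and 3.57%.

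The integrated stress response, in which ATF4 raises amino acid transport and synthesis genes, was higher in part. Of 30 genes 10 rose and 4 fell. Atf4 itself, named after its value was seen, did not pass (log2 fold change 0.22 with SE 0.10, adjusted p = 0.087 by edgeR). Cebpb, a transcription factor of stress and inflammation, was at 247, 269.5 and 225 CPM in TDP-43 + EA and 34.4, 30.3 and 30.6 CPM in Control (log2 fold change 2.96 with SE 0.13, adjusted p = 1.2e-09 by edgeR), and Ppp1r15a, which restarts translation, at 348, 290.5 and 318 CPM in TDP-43 + EA and 107, 79.2 and 76.2 CPM in Control (log2 fold change 1.87 with SE 0.16, adjusted p = 4.7e-07 by edgeR). The related factor gene Cebpg (1.24, SE 0.12) and the amino acid transporter gene Slc38a2 (1.09, SE 0.09) rose. The amino acid synthesis genes Asns (-0.26, SE 0.10), Psph (0.04, SE 0.11), Phgdh (0.15, SE 0.21), Shmt2 (-0.08, SE 0.11), Aldh18a1 (-0.46, SE 0.19) and Pycr1 (0.14, SE 0.53), also named after their values were seen, did not pass, though Atf4, Asns and Aldh18a1 passed in 2, 7 and 3 of 15 alternative settings. Atf3 went the other way, with 629, 593 and 618 CPM in TDP-43 + EA and 849, 917 and 827 CPM in Control (log2 fold change -0.49 with SE 0.11, adjusted p = 0.0026 by edgeR), and the serine synthesis gene Psat1 (-0.98, SE 0.10), Vldlr (-1.09, SE 0.12) and Stc2 (-2.77, SE 0.79) fell. Among aminoacyl-tRNA synthetases, also ATF4 targets, 2 of 20 rose and 6 fell, the largest fall being that of Mars1 (-0.58, SE 0.12), and 11 fell on log2(TPM + 1) values. Genes of the endoplasmic reticulum and its unfolded protein response had 5 of 28 risen and 7 fallen, or 11 fallen on log2(TPM + 1) values. The 5 and 7 genes were 17.9% and 25%, beside 19.6% and 18.7% of all genes tested. Ero1a, which drives disulfide formation (1.08, SE 0.11), and Dnajb9 (1.43, SE 0.18) rose. Pdia6 (-0.59, SE 0.10) and Sel1l (-0.77, SE 0.12) fell, and so did Xbp1, a transcription factor of this response, named after its value was seen (-0.37, SE 0.12). Hspa5, the main chaperone of the compartment, was at 1134, 1009.6 and 1060.3 CPM in TDP-43 + EA and 738, 728 and 792 CPM in Control.

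Early response genes, which are switched on within minutes of a growth or stress signal, were high in TDP-43 + EA cells at 24 h of EA, with 19 of 28 risen, 3 fallen and a list median of 1.43. Fosl1, a partner of Jun proteins in AP-1, was at 110.3, 131 and 73.0 CPM in TDP-43 + EA and 1.39, 0.834 and 1.90 CPM in Control (log2 fold change 6.26 with SE 0.31, adjusted p = 2.9e-09 by edgeR). Junb was at 431, 739 and 493 CPM in TDP-43 + EA and 40.0, 47.4 and 51.9 CPM in Control (log2 fold change 3.58 with SE 0.22, adjusted p = 2.2e-08 by edgeR) and Myc at 152, 159.8 and 128 CPM in TDP-43 + EA and 35.2, 33.6 and 31.1 CPM in Control (log2 fold change 2.14 with SE 0.11, adjusted p = 2.8e-09 by edgeR), and Arc, known from synapses, at 142, 76.3 and 138 CPM in TDP-43 + EA and 6.03, 6.68 and 5.34 CPM in Control (log2 fold change 4.30 with SE 0.26, adjusted p = 2.1e-08 by edgeR). These groups did not overlap. The founding members of AP-1 were, with Atf3, the 3 that fell. Jun was at 1047, 1152 and 1128 CPM in TDP-43 + EA and 1537, 1464 and 1642 CPM in Control (log2 fold change -0.48 with SE 0.15, adjusted p = 0.023 by edgeR) and Fos at 372, 399 and 428 CPM in TDP-43 + EA and 549, 418 and 499 CPM in Control (log2 fold change -0.29 with SE 0.11, adjusted p = 0.042 by edgeR). The calls of Jun and Fos were lost in 5 and 6 of 15 settings (adjusted p up to 0.0803 and 0.199). Of the phosphatases and Sprouty proteins that end MAP kinase signals 11 of 20 rose and 4 fell. Dusp5, which acts on ERK in the nucleus, was at 8.63, 9.39 and 9.46 CPM in TDP-43 + EA and 0.533, 0.960 and 0.557 CPM in Control (log2 fold change 3.73 with SE 0.31, adjusted p = 4.7e-07 by edgeR), and Spred1, an inhibitor of Ras signals (2.69, SE 0.25), and Dusp4 (4.38, SE 0.42) rose. Dusp15, abundant in myelinating glia, fell, with 32.4, 40.4 and 50.1 CPM in TDP-43 + EA and 129, 121 and 156 CPM in Control (log2 fold change -1.72 with SE 0.19, adjusted p = 7.8e-06 by edgeR), and Dusp10 fell too (-0.77, SE 0.09).

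Secreted factors, cytokine inhibitors and NF-kB targets moved both ways, more of them up. Gdf15, a cytokine of stressed cells, was at 9.39, 14.99 and 9.36 CPM in TDP-43 + EA and 0.0410, 0.209 and 0 CPM in Control (log2 fold change 6.95 with SE 0.54, adjusted p = 2.6e-07 by edgeR), and Hbegf, a ligand of the EGF receptor, at 102, 57.3 and 102 CPM in TDP-43 + EA and 12.8, 13.3 and 13.4 CPM in Control (log2 fold change 2.73 with SE 0.19, adjusted p = 6.9e-08 by edgeR). Among 24 growth factor genes 10 rose and 6 fell, and those that fell were Bmp2 (-0.52, SE 0.14), Bmp4 (-2.15, SE 0.30), Pdgfa (-0.65, SE 0.09), Btc (-1.39, SE 0.16), Tgfb2 (-1.40, SE 0.12) and Tgfb3 (-2.003, SE 0.21). Of 23 genes of cytokine signalling through gp130 and its Socs inhibitors 9 rose and 3 fell. Socs1 was at 15.9, 34.7 and 15.7 CPM in TDP-43 + EA and 0.492, 0.501 and 0.510 CPM in Control (log2 fold change 5.45 with SE 0.44, adjusted p = 3.4e-07 by edgeR) and Socs3 at 49.3, 62.7 and 45.3 CPM in TDP-43 + EA and 7.96, 11.9 and 12.2 CPM in Control (log2 fold change 2.30 with SE 0.22, adjusted p = 1.7e-06 by edgeR), both well apart, and Socs2 fell (-1.03, SE 0.22). NF-kB targets and chemokines had 10 of 16 genes risen and 2 fallen. The list held 26 genes, and those not tested had too few counts, among them Tnf, Il1b, Cxcl2 and Ccl20 with none. Some that rose were near the limit of detection in Control, such as Cxcl10 at 0, 0.292 and 0 CPM. Such genes pass the filter on low counts only through groups where they are high, which favours rises in this count. The growth factor list, with 24 of 36 genes tested, has the same limit. Nfkbia, the inhibitor that NF-kB itself induces, was at 108, 141 and 104 CPM in TDP-43 + EA and 56.1, 60.1 and 50.9 CPM in Control (log2 fold change 1.08 with SE 0.14, adjusted p = 2.9e-05 by edgeR), and Nfkbiz, a nuclear member of that family, at 12.5, 7.595 and 6.29 CPM in TDP-43 + EA and 1.85, 1.67 and 1.44 CPM in Control (2.41, SE 0.34), while Csf1 (-0.66, SE 0.15) and Tnfaip2 (-2.09, SE 0.62) fell. Among interferon-stimulated genes 6 of 24 rose and 3 fell, close in share to the 19.6 and 18.7% of all genes, with Irf1 at 26.5, 33.2 and 33.4 CPM in TDP-43 + EA and 6.97, 10.0 and 7.75 CPM in Control (log2 fold change 1.91 with SE 0.19, adjusted p = 2.9e-06 by edgeR), B2m, a subunit of MHC class I (0.92, SE 0.08), and the antiviral gene Mx2 lower (-1.58, SE 0.23). Among metallothioneins, which bind zinc and copper, Mt2A was at 7.01, 6.21 and 4.24 CPM in TDP-43 + EA and 1.15, 1.25 and 0.742 CPM in Control (log2 fold change 2.46 with SE 0.41, adjusted p = 2.5e-04 by edgeR). Mt1 was at 30.7, 23.7 and 21.1 CPM in TDP-43 + EA and 13.5, 14.2 and 13.0 CPM in Control (log2 fold change 0.89 with SE 0.20, adjusted p = 0.0026 by edgeR). In the list of metallothionein and zinc genes 5 of 8 rose and none fell by edgeR, although 1 was lower at an unadjusted p under 0.05 and by DESeq2.

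**Figure D4:**
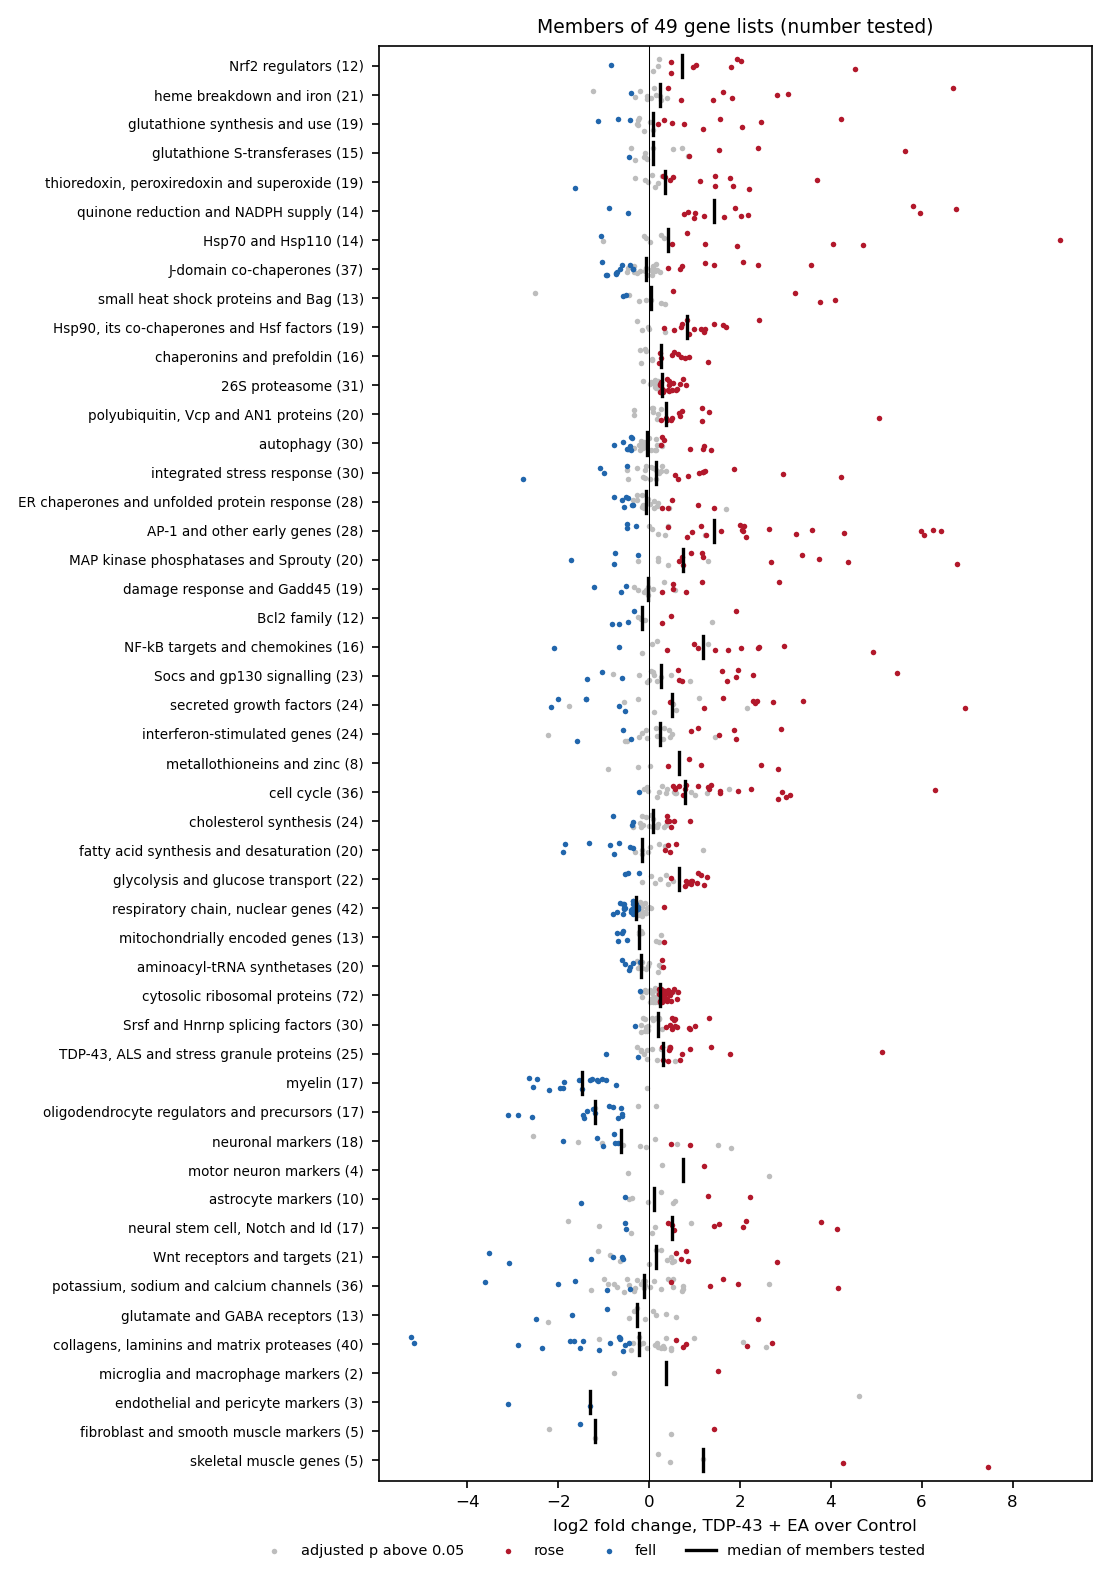
Log2 fold change of TDP-43 + EA over Control for each tested member of 49 gene lists, 1 row per list, with genes that had no count in Control drawn at the lower bound of their change and the median of each list marked. The antioxidant, chaperone and early gene lists reach far to the right of 0 while the myelin and oligodendrocyte lists lie to the left.

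Genes of the damage response and of cell death moved both ways. Gadd45g, a stress gene that slows the cell cycle, was at 979, 774 and 942 CPM in TDP-43 + EA and 161, 103 and 108 CPM in Control (log2 fold change 2.86 with SE 0.18, adjusted p = 3.5e-08 by edgeR), and Mdm2 (0.52, SE 0.10) and Bax (0.29, SE 0.08) rose by less. Ccng1, a cyclin gene of the damage response, fell, with 293, 188 and 250.4 CPM in TDP-43 + EA and 645, 486 and 574 CPM in Control (log2 fold change -1.22 with SE 0.16, adjusted p = 3.3e-05 by edgeR), and so did Plk2 (-0.51, SE 0.15). In this list 6 of 19 genes rose and 3 fell (31.6% and 15.8%, beside 19.6% and 18.7% of all genes tested). In the Bcl2 family Bcl2l11, which encodes the killer protein Bim, was at 39.8, 30.9 and 27.5 CPM in TDP-43 + EA and 7.34, 8.84 and 9.98 CPM in Control (log2 fold change 1.91 with SE 0.16, adjusted p = 4.3e-07 by edgeR). Bcl2l1, the gene of its restraint Bcl-xL, was at 70.2, 93.4 and 79.5 CPM in TDP-43 + EA and 130, 118 and 134 CPM in Control (log2 fold change -0.65 with SE 0.12, adjusted p = 6.6e-04 by edgeR), lower in every TDP-43 + EA library than in any Control. The killers Bad (-0.33, SE 0.12), Bak1 (-0.47, SE 0.12) and Bid (-0.82, SE 0.23) fell, so that 3 of 12 rose and 4 fell. These were 25% and 33.3%, beside 19.6% and 18.7% of all genes tested. Cell cycle genes rose in 20 of 36 and fell in 1, with Ccnd1, the cyclin of the G1 phase, at 149, 221 and 173 CPM in TDP-43 + EA and 67.8, 58.9 and 58.1 CPM in Control (log2 fold change 1.56 with SE 0.13, adjusted p = 5.4e-07 by edgeR) and the replication helicase subunits Mcm6 (1.30, SE 0.16) and Mcm7 (1.07, SE 0.12) higher. Bub1b, of the spindle checkpoint, was near the limit of detection in Control, at 6.70, 2.93 and 5.17 CPM in TDP-43 + EA and 0, 0 and 0.186 CPM in Control (6.29, SE 0.74), and Cdk4 fell (-0.22, SE 0.08). The calls of Bad, Cdk4 and Bax were lost in 6, 6 and 3 of 15 settings.

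Glycolysis genes rose while nuclear genes of the respiratory chain fell. Of 22 glycolysis and glucose transport genes 12 rose and 3 fell, and the list held 1.12, 1.58 and 1.32% of TPM in TDP-43 + EA and 0.699, 0.778 and 0.736% in Control. Aldoa was at 1786, 2228 and 1932 CPM in TDP-43 + EA and 919, 968 and 918 CPM in Control (log2 fold change 1.08 with SE 0.09, adjusted p = 3.8e-07 by edgeR), Tpi1 at 686, 869 and 779 CPM in TDP-43 + EA and 367, 377 and 379.7 CPM in Control (1.06, SE 0.09) and Pkm, the last enzyme of the pathway, at 2169, 3329 and 2564 CPM in TDP-43 + EA and 985, 1215 and 1119 CPM in Control (1.28, SE 0.14). Replicate 2 was the highest TDP-43 + EA library in all of these, and no TDP-43 + EA library reached down to Control. The brain forms Aldoc (-0.54, SE 0.10) and Eno2 (-0.21, SE 0.08) and the kinase gene Pfkp (-0.47, SE 0.12) fell. The call of Eno2 was lost in 10 of 15 settings (adjusted p up to 0.164). Among 42 nuclear respiratory chain genes 24 fell and 1 rose, with a median log2 fold change of -0.28. Cox8a was at 218, 169 and 192 CPM in TDP-43 + EA and 344, 328 and 337 CPM in Control (log2 fold change -0.80 with SE 0.12, adjusted p = 7.7e-05 by edgeR), and Atp5f1c (-0.56, SE 0.08) and Cox5b (-0.63, SE 0.10) also fell, whereas Ndufb10 rose (0.32, SE 0.08). Mitochondrially encoded genes had 5 of 13 fallen and 1 risen, or 8 fallen without TDP-43 + EA replicate 1 and 9 on log2(TPM + 1) values. Mt-nd1 was at 620.3, 431 and 495 CPM in TDP-43 + EA and 883, 841 and 785 CPM in Control (log2 fold change -0.70 with SE 0.11, adjusted p = 1.7e-04 by edgeR) and Mt-nd5 at 762, 655 and 662 CPM in TDP-43 + EA and 579.7, 547 and 530.3 CPM in Control (0.33, SE 0.08). Cytosolic ribosomal protein genes rose slightly in 34 of 72 and fell in 1, with a median of 0.24 and the largest change in Rps2, at 573, 582 and 551 CPM in TDP-43 + EA and 389, 353 and 356 CPM in Control (log2 fold change 0.64 with SE 0.08, adjusted p = 2.0e-05 by edgeR); 19 rose on log2(TPM + 1) values and 20 without Control replicate 3.

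Genes of splicing factors that bind RNA, and genes tied to ALS and stress granules, rose in part. Of 30 Srsf and Hnrnp splicing factors 12 rose and 1 fell, with Srsf2 at 425, 407 and 390.1 CPM in TDP-43 + EA and 194, 199 and 216 CPM in Control (log2 fold change 1.01 with SE 0.10, adjusted p = 2.0e-06 by edgeR), Hnrnpd (0.88, SE 0.10), Hnrnpl (0.51, SE 0.08) and Hnrnpab (0.47, SE 0.07) higher and Hnrnpm lower (-0.31, SE 0.08). In a list of 25 genes of ALS and stress granules 12 rose and 2 fell. These were 48% and 8%, beside 19.6% and 18.7% of all genes tested. Tardbp, Sod1, Sqstm1 and Vcp had the smallest adjusted p. TDP-43 was delivered to these cells, so the rise of Tardbp was set by the design. Sod1, Sqstm1 and Vcp were already counted in the groups described above. The 2 that fell were the dynactin gene Dctn1 (-0.24, SE 0.09) and the rat gene of C9orf72, listed as RGD1359108, at 8.04, 8.01 and 10.2 CPM in TDP-43 + EA and 16.2, 13.9 and 20.4 CPM in Control (log2 fold change -0.94 with SE 0.22, adjusted p = 0.0036 by edgeR). The call of Dctn1 was lost in 6 of 15 settings (adjusted p up to 0.147).

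Myelin genes fell almost throughout. Of 17 tested 16 fell and none rose by edgeR, at an unadjusted p under 0.05 or by DESeq2, and the median log2 fold change was -1.47. Mbp, which encodes a main protein of compact myelin, had the highest TPM of the list. It was at 9629, 9820.3 and 11485 CPM in TDP-43 + EA and 20577, 18810.3 and 24192 CPM in Control (log2 fold change -1.04 with SE 0.13, adjusted p = 1.8e-05 by edgeR). Mag, an adhesion protein of the inner myelin sheath, was at 834, 653 and 994 CPM in TDP-43 + EA and 2172, 1932 and 2786 CPM in Control (-1.47, SE 0.19), and Mog, of its outer surface, at 56.0, 44.2 and 89.3 CPM in TDP-43 + EA and 232, 197 and 311 CPM in Control (-1.96, SE 0.25). The groups were apart for each of these. Larger changes were seen for Opalin, at 43.6, 65.9 and 87.01 CPM in TDP-43 + EA and 403, 296 and 458 CPM in Control (log2 fold change -2.56 with SE 0.27, adjusted p = 4.6e-06 by edgeR), and for Mobp, at 4.36, 6.57 and 8.71 CPM in TDP-43 + EA and 31.3, 26.5 and 65.6 CPM in Control (log2 fold change -2.65 with SE 0.43, adjusted p = 2.2e-04 by edgeR). Enzymes of myelin lipids fell too, Fa2h, which hydroxylates their fatty acids (-1.88, SE 0.16), Ugt8, which makes galactosylceramide (-1.14, SE 0.14), and Gal3st1, which turns it into sulfatide (-1.30, SE 0.13). Myelin genes held 1.61, 1.47 and 1.89% of TPM in TDP-43 + EA, against 3.49, 3.19 and 4.03% in Control.

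Regulators of oligodendrocytes, the glia that make myelin, had 14 of 17 genes fallen and none risen by edgeR, at an unadjusted p under 0.05 or by DESeq2. Myrf, the factor that switches on myelin genes, was at 84.3, 123 and 134 CPM in TDP-43 + EA and 302, 309.7 and 317 CPM in Control (log2 fold change -1.44 with SE 0.16, adjusted p = 7.7e-06 by edgeR), Olig1 at 657, 561 and 705 CPM in TDP-43 + EA and 1453, 1298 and 1660.5 CPM in Control (-1.20, SE 0.17) and Sox10, needed throughout the lineage, at 750, 957 and 783 CPM in TDP-43 + EA and 1269, 1195 and 1326 CPM in Control (-0.61, SE 0.13). Gpr17, a receptor of cells about to myelinate, was at 9.30, 10.4 and 12.9 CPM in TDP-43 + EA and 76.8, 74.0 and 89.8 CPM in Control (log2 fold change -2.88 with SE 0.21, adjusted p = 1.5e-07 by edgeR), with groups far apart. The 18 genes of this list reached 3170 to 3715 CPM together in TDP-43 + EA, against 5964 to 7070 CPM in Control. In these bulk samples, fewer cells of a type and less of its RNA per cell cannot be told apart.

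Other cell type genes went both ways, though more of the stem cell, Notch and Id genes rose than fell. Of 18 neuronal genes tested 2 rose and 6 fell (11.1% and 33.3%, beside 19.6% and 18.7% of all genes tested). Gap43, of growing axons, was at 7.78, 5.44 and 7.78 CPM in TDP-43 + EA and 30.8, 27.3 and 20.4 CPM in Control (log2 fold change -1.90 with SE 0.25, adjusted p = 3.5e-05 by edgeR), Elavl3 (-1.15, SE 0.17), Syt1 (-1.01, SE 0.15) and Mapt (-0.74, SE 0.12) fell, and Map2 (0.48, SE 0.12) and Nefl (0.90, SE 0.32) rose. For Nefl the groups overlapped, at 67.6, 36.2 and 103 CPM in TDP-43 + EA and 33.5, 29.0 and 48.2 CPM in Control. Its call was lost in 9 of 15 settings (adjusted p up to 0.24). The neuronal markers Stmn2 and Slc32a1 had no count in any library. Among astrocyte genes, Glul, glutamine synthetase, was at 411, 411 and 474 CPM in TDP-43 + EA and 1256, 1031 and 1351 CPM in Control (log2 fold change -1.49 with SE 0.13, adjusted p = 5.6e-07 by edgeR), and Sox9, also a stem cell factor, at 49.2, 93.9 and 56.7 CPM in TDP-43 + EA and 18.2, 13.4 and 11.4 CPM in Control (log2 fold change 2.21 with SE 0.24, adjusted p = 6.4e-06 by edgeR). Gfap, the filament of astrocytes, was at 439, 318 and 279 CPM in TDP-43 + EA and 258, 287 and 178 CPM in Control, with overlapping groups (log2 fold change 0.52 with SE 0.24, adjusted p = 0.10 by edgeR). Of 10 astrocyte genes tested 2 rose and 2 fell, 20% each way, close to the 19.6% and 18.7% of all genes tested. Of 17 stem cell, Notch and Id genes 9 rose and 2 fell. Hes1, the main target of Notch, was at 9.17, 10.2 and 11.6 CPM in TDP-43 + EA and 0.862, 0.292 and 0.603 CPM in Control (log2 fold change 4.13 with SE 0.38, adjusted p = 1.4e-06 by edgeR), Id2 at 167, 284 and 175 CPM in TDP-43 + EA and 48.7, 65.5 and 35.6 CPM in Control (2.06, SE 0.22), Id1 at 108, 194 and 122 CPM in TDP-43 + EA and 50.6, 62.2 and 43.8 CPM in Control (1.43, SE 0.19) and Sox2 at 268, 363 and 301 CPM in TDP-43 + EA and 229, 234 and 232 CPM in Control (0.42, SE 0.10). Replicate 2 was the highest TDP-43 + EA library for both Id genes.

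**Figure D5:**
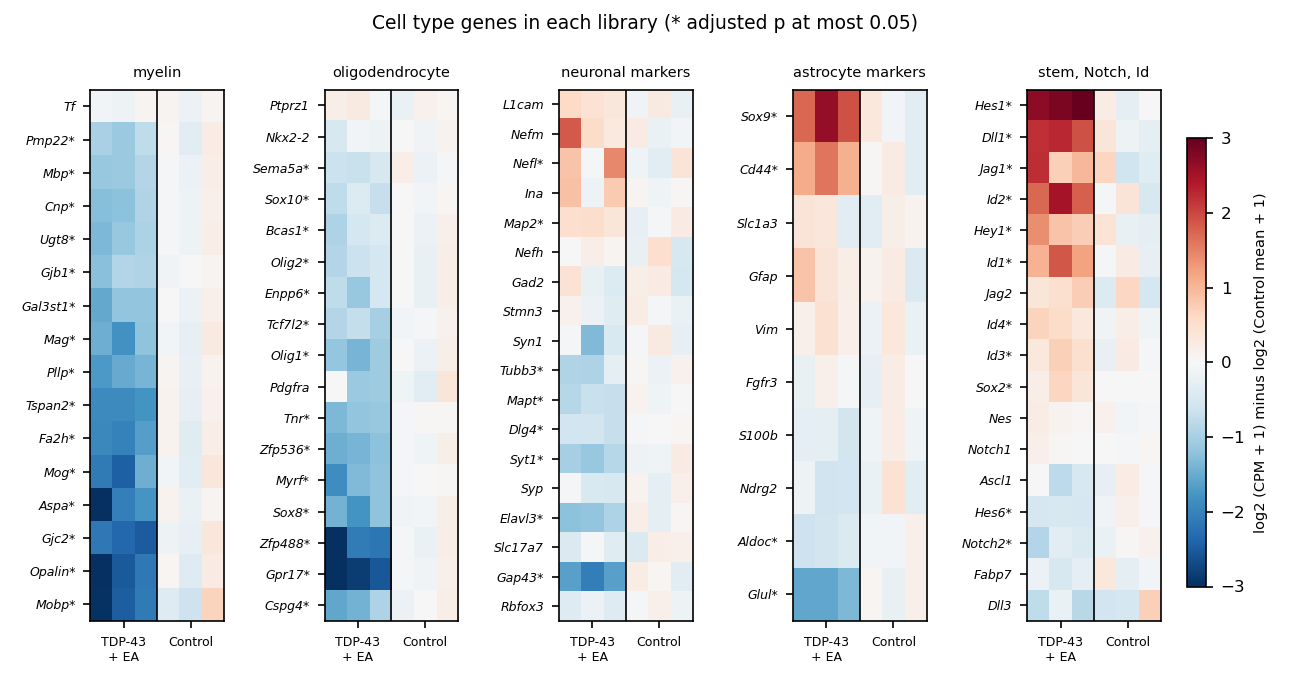
Level of genes of 5 cell type lists in each TDP-43 + EA and Control library, as the difference in log2(CPM + 1) from the mean of the Control libraries; an asterisk marks an adjusted p of at most 0.05. The myelin and oligodendrocyte genes with an asterisk are lower in all 3 TDP-43 + EA libraries. The neuronal, astrocyte and stem cell genes go both ways, with more of the stem cell genes higher than lower.

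Receptors, channels and matrix proteins were also mixed. The Wnt receptor gene Fzd10 was at 1.57, 3.28 and 2.79 CPM in TDP-43 + EA and 31.6, 25.6 and 30.3 CPM in Control (log2 fold change -3.52 with SE 0.32, adjusted p = 9.4e-07 by edgeR) and Rnf43, which removes Wnt receptors, at 1.26, 2.51 and 1.82 CPM in TDP-43 + EA and 16.8, 9.39 and 21.2 CPM in Control (log2 fold change -3.09 with SE 0.41, adjusted p = 3.7e-05 by edgeR). Fzd4 was at 12.2, 4.46 and 9.74 CPM in TDP-43 + EA and 1.93, 1.04 and 0.742 CPM in Control (2.82, SE 0.44). Of 21 Wnt genes 5 rose and 6 fell, 23.8% and 28.6%, beside 19.6% and 18.7% of all genes tested. There were 3 risen without Control replicate 3 or TDP-43 + EA replicate 2, and 3 fallen without Control replicate 2. Of 36 ion channel genes 5 rose and 5 fell, 13.9% each way, so both shares were under those of all genes. There were 3 risen on log2(TPM + 1) values, in a fit of the 6 libraries alone, and without Control replicate 2, TDP-43 + EA replicate 1 or TDP-43 + EA replicate 2. The potassium channel genes Kcna6 (-3.60, SE 0.46) and Kcnj10, a glial channel (-1.63, SE 0.29), and the calcium channel gene Cacna1d (-2.01, SE 0.31) fell, and Kcnk3, a leak channel, had no count in Control and 4.54, 0.9751 and 1.44 CPM in TDP-43 + EA, at least 18.0-fold higher, or at least 9.37-fold without replicate 1 of TDP-43 + EA. Glutamate and GABA receptor genes had 1 of 13 risen and 3 fallen (7.69% and 23.1%, beside 19.6% and 18.7% of all genes tested). Among them were Grin2c at 0.674, 1.03 and 0.326 CPM in TDP-43 + EA and no count in Control (at least 5.23-fold higher, a call lost on log2(TPM + 1) values with an adjusted p of 0.132 by limma) and Grik4 at 3.46, 4.05 and 3.49 CPM in TDP-43 + EA and 11.1, 11.8 and 12.9 CPM in Control (log2 fold change -1.70 with SE 0.25, adjusted p = 1.1e-04 by edgeR). Collagens, laminins and matrix proteases had 16 of 40 fallen and 5 risen, or 3 risen with a minimum of 1 CPM in 3 libraries. Adamts4, a protease of matrix proteoglycans that oligodendrocytes make, was at 273, 356 and 408 CPM in TDP-43 + EA and 1083, 1018 and 1363 CPM in Control (log2 fold change -1.74 with SE 0.15, adjusted p = 5.3e-07 by edgeR), Col20a1 fell (-0.63, SE 0.10), and the laminin genes Lamc1 (0.80, SE 0.11), Lama4 (0.60, SE 0.10) and Lama5 (0.76, SE 0.17) rose.

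Genes of cholesterol synthesis and uptake moved little, and among fatty acid genes more fell than rose. In cholesterol synthesis and uptake 6 of 24 rose and 3 fell (25% and 12.5%, beside 19.6% and 18.7% of all genes tested). Tm7sf2, a sterol reductase gene, was at 167, 114 and 169.9 CPM in TDP-43 + EA and 266, 236 and 285 CPM in Control (-0.80, SE 0.14). Among fatty acid genes 4 of 20 rose and 8 fell, 3 of them lower DEGs. These were Fa2h, described with myelin, the elongase gene Elovl7 (3.82, 2.46 and 7.73 CPM in TDP-43 + EA and 17.5, 10.47 and 22.6 CPM in Control, -1.84, SE 0.42) and the acyl-CoA synthetase gene Acsl6 (4.22, 4.11 and 3.54 CPM in TDP-43 + EA and 11.1, 9.97 and 8.40 CPM in Control, -1.31, SE 0.25), while Acsl4 of the same family rose (0.60, SE 0.10). Acsl3 was at 693, 768 and 837 CPM in TDP-43 + EA and 1379.9, 1118 and 1442 CPM in Control (-0.78, SE 0.12) and Elovl1, which makes very long chains, at 153, 151 and 170.1 CPM in TDP-43 + EA and 284, 256 and 321 CPM in Control (-0.86, SE 0.10).

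Some genes were silent in Control and detected in TDP-43 + EA. Among the higher DEGs 67 had no count in any Control library, and 9 of the lower DEGs had none in any TDP-43 + EA library. Btnl5, a butyrophilin-like gene, was at 3.78, 1.80 and 2.47 CPM in TDP-43 + EA, at least 20.8-fold higher, and Trim72, known from repair of muscle membranes, at 1.93, 3.03 and 2.47 CPM, at least 19.2-fold higher. Myod1, the master factor of muscle, was at 4.76, 3.03 and 2.56 CPM in TDP-43 + EA and 0, 0.0417 and 0 CPM in Control. Of 21 skeletal muscle genes found 17 were under 1 CPM in all 6 libraries and 8 had no count, including Myog, Des and Myh3, and the list summed to 8.25 to 10.01 CPM in TDP-43 + EA and 1.68 to 2.78 CPM in Control. Other genes with the largest rises were Sdcbp2 at 13.7, 12.6 and 10.53 CPM in TDP-43 + EA and 0, 0.0417 and 0.0464 CPM in Control, St8sia1, the enzyme that makes ganglioside GD3, at 5.44, 5.49 and 3.59 CPM in TDP-43 + EA and 0.0821, 0 and 0 CPM in Control, and Ier3, an early gene that bears on survival, at 220.5, 602 and 264 CPM in TDP-43 + EA and 3.73, 5.42 and 3.34 CPM in Control. For Ier3 replicate 2 was far above the other TDP-43 + EA libraries. Among the largest falls, Tmem125, a membrane protein gene, was at 24.9, 37.9 and 34.7 CPM in TDP-43 + EA and 355, 278 and 375 CPM in Control (log2 fold change -3.37 with SE 0.27, adjusted p = 2.9e-07 by edgeR) and the orphan receptor gene Gpr62 at 3.10, 6.93 and 6.85 CPM in TDP-43 + EA and 38.8, 33.3 and 54.2 CPM in Control (log2 fold change -2.91 with SE 0.34, adjusted p = 1.2e-05 by edgeR). Actb, often used to scale other genes, was at 3841, 3617 and 3746 CPM in TDP-43 + EA and 5390.3, 5158 and 5388 CPM in Control (log2 fold change -0.51 with SE 0.08, adjusted p = 1.1e-04 by edgeR), and Ckb, brain creatine kinase, was at 15212, 17345 and 13904 CPM in TDP-43 + EA and 9449, 9357 and 8742 CPM in Control (log2 fold change 0.75 with SE 0.21, adjusted p = 0.01 by edgeR). The call of Ckb was lost with no filter on low counts and on log2(TPM + 0.1) values (adjusted p up to 0.0606).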

How the data were processed

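RNA of 3 TDP-43 + EA and 3 Control libraries was compared. Per the study's methods, 1.0 ng of RNA was amplified with SMART-Seq v4 and Nextera XT and read in pairs; molecular identifiers and a strand setting are not named. The authors made the deposited expected counts per gene with DRAGEN on Rnor_6.0 and Ensembl 101 transcripts, without normalization, and the deposited TPM by dividing reads per transcript by length and scaling each library to 1000000. The tables hold 32883 genes. The submitters' processing notes also name bcl2fastq 2.20, R 3.6.0 and DESeq2 1.26.0.

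Here expected counts were rounded and fitted in edgeR 4.0.16 (R 4.3.3) over all 12 libraries, so that the groups share 1 estimate of spread: default filter on low counts, TMM factors (1.02 to 1.04 in TDP-43 + EA, 1.04 to 1.09 in Control), robust quasi-likelihood fit, contrast TDP-43 + EA minus Control, Benjamini-Hochberg adjustment over 13230 genes. CPM are scaled by TMM. For genes without a count in a group, bounds on the fold took 3 counts in each library as the limit and account for counting error alone. Sums of TPM use the deposited values. No 2 libraries of a group were near copies (chi-square per gene 13.1 to 29.6). The fit was tested on simulated data. Plots were drawn in matplotlib 3.10.9, Python 3.11.15.

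Members and gene lists were chosen with earlier results of these data known. The 49 lists hold 1233 symbols, of which 1183 matched directly, 23 through Entrez numbers and 27 had no match. Named genes are Tardbp, Hspa1b, Hmox1 and Nqo1, in each direction the 15 DEGs of largest fold (groups not overlapping, the higher one averaging 50 or more counts), the 15 genes with the largest TPM difference in each direction, and in each list the 4 members with the smallest adjusted p, those called against the majority and, for lists of at most 25 found members, any other; some genes that this rule names are not reported here. Promoters came from RefSeq (GRCr8), matched by symbol or gene number to 9937 tested genes. Alternatives were DESeq2 1.42.0, its size factors, library totals, other filters on low counts, the 6 libraries alone, a replicate block, limma 3.58.1 on log2(TPM + 1) and log2(TPM + 0.1), edgeR's glmTreat test against a fold of 1.5, and leaving out each library.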

Additional observations from a re-analysis of the deposited data

How the results depend on the processing

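Counts of DEGs, 991 higher and 572 lower, stayed within 1.5 times under every alternative but 1: limma on log2(TPM + 1) gave 561 higher and 514 lower, 52.2% higher against 63.4% on counts, and a pseudocount of 0.1 gave 873 and 738, 54.2% higher; the cause was not tested. Over the settings the median of all genes lay between -0.099 and 0.0096, and no gene called in an alternative as well changed direction. Leaving out 1 library at a time gave 902 to 1003 higher and 493 to 608 lower DEGs. Same-numbered TDP-43 + EA and Control libraries deviated together only weakly (r = 0.0747, 0.0653 and 0.0983 over genes, which are not independent). Each nevertheless correlated best with its own number. The sources do not say whether the numbers pair the samples, and the main fit did not pair them. With the replicate block 989 DEGs were higher and 602 lower, and 2777 genes rose and 2726 fell at any fold. Of 239 named genes 212 had the same direction and call in every setting, 23 lost the call in at least 1 and 4 that had not passed gained it in at least 1. Those 4 were Keap1, Atf4 and Asns, which passed with the replicate block (adjusted p = 0.0481, 0.00845 and 0.0138 by edgeR), and Aldh18a1. Without Control replicate 1 Atf4 passed (0.0497), without Control replicate 3 Asns (0.014) and Aldh18a1 (0.0403), and without TDP-43 + EA replicate 2 Asns (0.0394). Calls lost without a few libraries only were those of Ache (Control replicate 3, adjusted p = 0.0558), Gss (TDP-43 + EA replicate 1, 0.0537), Tnfaip2 (TDP-43 + EA replicate 1, 0.0611), Stc2 (Control replicate 2 or TDP-43 + EA replicate 3, at most 0.0543), Plk2 (Control or TDP-43 + EA replicate 2, at most 0.0895), Xbp1 (the same, at most 0.121) and Gpx8 (Control replicate 3 or TDP-43 + EA replicate 2 or 3, at most 0.0639), all by edgeR. Of 1470 counts of list members under an alternative 128 moved by over 1.5 times. With an arm of 2 libraries the fit takes its spread from all groups. Amplification from 1.0 ng of RNA, with no molecular identifiers named, means that intervals and floors cover counting error only.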

Other observations

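Within TDP-43 + EA, the order of libraries differed between gene groups, which was noticed after the values were seen and was not tested. Replicate 2 was the highest of the 3 in 11 of the 12 risen glycolysis genes and the lowest in 10 of the 14 risen genes of the Hsp90 list and in 6 of the 7 risen Hsp70 and Hsp110 genes. In Control, replicate 2 was also the lowest in 6 of those 7, and it was the highest in 6 of the 12 glycolysis genes. In the Hsp90 list, however, replicate 2 of Control was the lowest in 5 of the 14 genes and replicate 3 in 8. Replicate 3 of TDP-43 + EA was the highest in all 6 risen genes of cholesterol synthesis, and replicate 3 of Control in 5 of them. Among the 34 risen ribosomal protein genes replicate 1 was the highest in 22 in TDP-43 + EA and in 33 in Control, and replicate 3 the lowest in 31 in TDP-43 + EA and in 19 in Control. In these lists, other than that of Hsp90, libraries with the same number thus often held the same place in both groups. Genes of 1 list share their library, so these counts are not independent.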
